A study of Homo sapiens with 16 samples.

Results

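Interferon-stimulated genes are the genes that cells switch on when interferon binds its receptors. The 45 genes described here were the rows of the deposited count table whose symbols are in a list of well-known members of this response, and all 45 were among its 26475 symbols. After a filter on low counts 44 of them were among the 16012 genes tested. The exception was OASL, an oligoadenylate synthetase-like protein, which held 64 estimated counts in all 16 libraries and at most 0.199 CPM (counts per M, mega, of scaled library size) in any of them.

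Poly-A RNA was sequenced from lung metastases of A375 MA2-Luc, an established human melanoma line, of which 250000 cells had been transferred behind the eye of NSG mice. NSG mice lack mature T, B and natural killer cells but keep myeloid cells. The 16 libraries formed 4 groups of 4, named here by diet and treatment: high fat with inhibitors, high fat without inhibitors, ketogenic with inhibitors and ketogenic without inhibitors. All groups shared the cell line and the host strain. The labels say that the inhibitors are against BRAF-Kinase and MEK 1/2, name no compound or dose, and give an oral gavage 3 times a week for 5 weeks. They state no vehicle or gavage for the groups without inhibitors, so gavage and drug cannot be told apart. The design text calls the replicates biological but also speaks of a cultured line, and no label ties a replicate to its own mouse. P-values therefore measure the spread between these libraries, which may be partly technical.

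In the type I interferon pathway, interferon binds the receptor chains IFNAR1 and IFNAR2, whose kinases JAK1 and TYK2 phosphorylate STAT2. STAT2 joins IRF9 in a complex that binds the interferon-stimulated response element in promoters. The genes it switches on encode sensors of foreign nucleic acid, enzymes that halt translation or degrade RNA, and proteins that block viral entry and release.

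The response element has a core of GAAA repeated after a gap of 2 bases, written GAAANNGAAA, and it was searched on both strands from 250 bases before to 50 after each annotated transcript start. At least 1 copy was found for 25 of the 36 genes with a window (69.4%), against 4.38% of the 27305 symbols with a window in the whole RefSeq table. Per window the counts were 29 of 47 (61.7%) and 3.57% of 35116. Of the genes with a window, the motif was present in 7 of the 9 that passed the test upward with inhibitors on the high fat diet, in 8 of the 9 that passed it downward, and in 10 of the 18 that did not pass. SAMD9L and CMPK2 went upward and OAS1 downward without a copy in the window. A match describes the letters and says nothing of binding.

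Promoters of 4 genes are printed because these genes had the largest or most stable differences, ISG15 and IFIT3 upward with inhibitors and IFIH1 and DTX3L downward. Capitals mark the motif or its reverse complement, and overlapping copies run together. The windows are RefSeq, build GRCh38.p14, 5′ to 3′ on the gene's strand: ISG15 at chr1:1013247-1013546 (plus strand, 2 copies), IFIT3 at chr10:89332279-89332578 (plus strand, 2 copies, 1 of its 2 windows), IFIH1 at chr2:162318635-162318934 (minus strand, 3 copies) and DTX3L at chr3:122564088-122564387 (plus strand, 1 copy).
ISG15: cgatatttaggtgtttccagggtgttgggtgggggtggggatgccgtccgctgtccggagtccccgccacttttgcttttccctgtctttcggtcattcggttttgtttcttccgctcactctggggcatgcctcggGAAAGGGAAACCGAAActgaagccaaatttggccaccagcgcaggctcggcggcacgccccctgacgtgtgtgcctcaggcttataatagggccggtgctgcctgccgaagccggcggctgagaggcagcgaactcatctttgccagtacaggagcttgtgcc
IFIT3: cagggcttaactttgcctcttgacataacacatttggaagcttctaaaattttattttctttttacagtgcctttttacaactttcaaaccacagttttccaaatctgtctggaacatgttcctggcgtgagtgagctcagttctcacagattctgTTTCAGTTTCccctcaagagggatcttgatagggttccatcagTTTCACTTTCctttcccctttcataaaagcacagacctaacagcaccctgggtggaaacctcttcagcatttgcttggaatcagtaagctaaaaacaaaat
IFIH1: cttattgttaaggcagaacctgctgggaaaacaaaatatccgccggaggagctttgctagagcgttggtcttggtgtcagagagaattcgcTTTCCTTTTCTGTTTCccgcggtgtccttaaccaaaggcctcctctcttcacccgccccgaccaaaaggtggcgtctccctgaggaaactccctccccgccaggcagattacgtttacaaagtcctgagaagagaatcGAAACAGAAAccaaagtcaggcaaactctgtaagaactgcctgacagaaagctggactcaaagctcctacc
DTX3L: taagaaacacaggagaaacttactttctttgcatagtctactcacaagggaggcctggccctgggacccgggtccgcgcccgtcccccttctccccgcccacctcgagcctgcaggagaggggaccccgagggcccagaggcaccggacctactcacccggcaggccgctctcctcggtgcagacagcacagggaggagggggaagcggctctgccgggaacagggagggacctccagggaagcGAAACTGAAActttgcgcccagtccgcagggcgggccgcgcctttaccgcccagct
In GENCODE release 29 on the same build the genes span chr1:1001138-1014540 (ISG15), chr10:89327894-89340971 (IFIT3), chr2:162267079-162318703 (IFIH1) and chr3:122564238-122575203 (DTX3L). The window of PARP9, the partner that is transcribed away from DTX3L, overlaps the one shown, and both held the same copy at chr3:122564332-122564341.

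**Figure D1:**
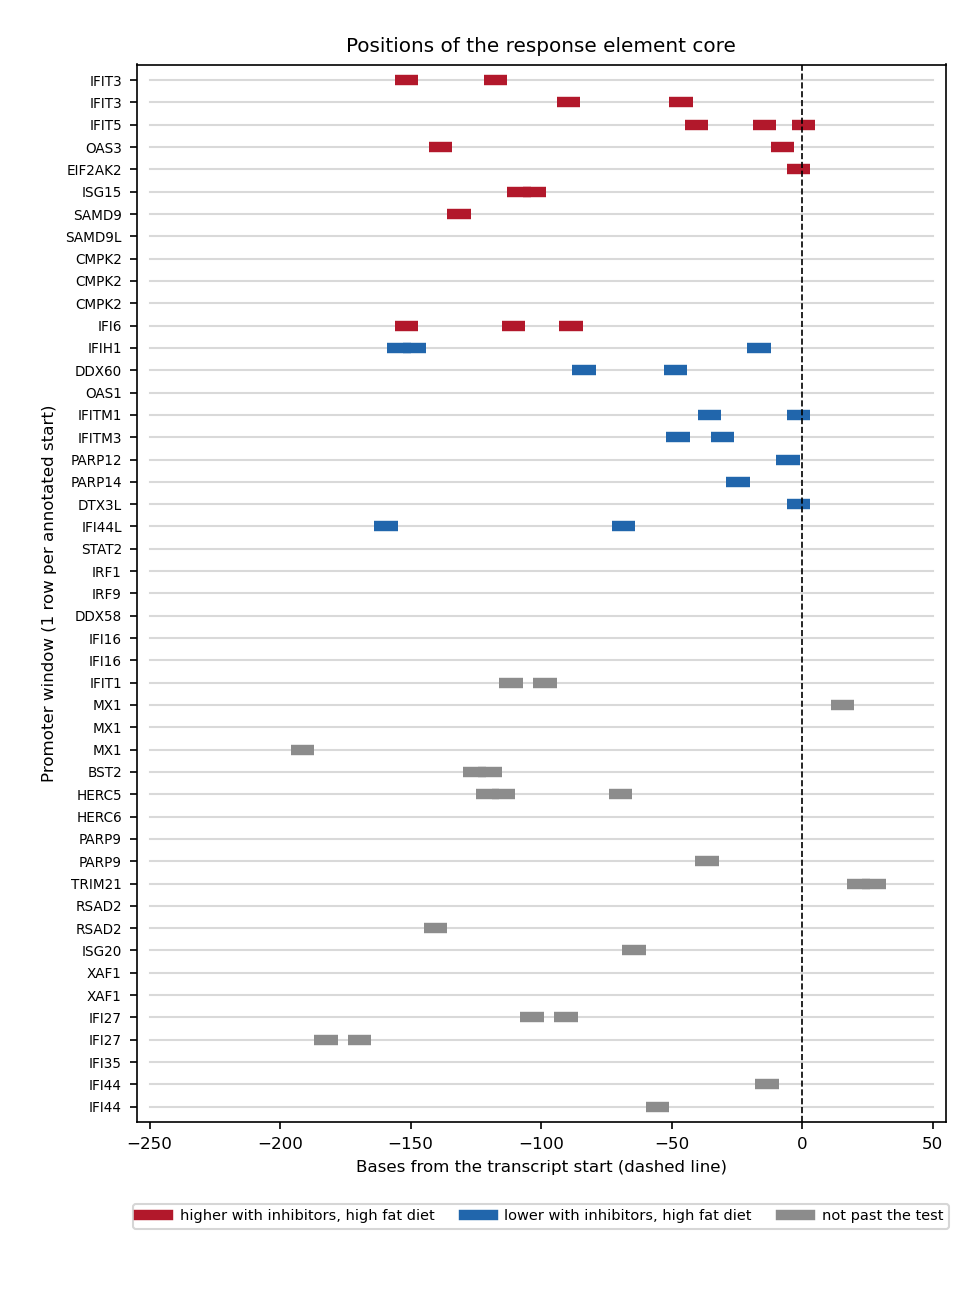
Positions of the response element core (GAAANNGAAA, either strand) in 47 promoter windows of 36 interferon-stimulated genes, in bases from the transcript start (dashed line); bars are copies of the motif and grey lines are windows. Under high fat feeding, genes higher with inhibitors (red) and genes lower (blue) both carried copies within 200 bases of the start.

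The libraries held 37.1 to 77.3 M estimated counts (M, mega). Ribosomal RNA took means of 17.3% ± 2.20 of them in high fat libraries with inhibitors, 32.7% ± 13.5 without, 7.08% ± 2.00 in ketogenic libraries with inhibitors and 23.7% ± 7.97 without (SD, n = 4 each). Among 11 melanoma lineage genes the summed level was 2360 to 5103 CPM. Of other cells that could make or answer interferon, MS4A1 of B cells, MPO of neutrophils and CLEC4C of plasmacytoid dendritic cells were at 0 in all 16 libraries. Other genes of these lists were present, such as CD68 of macrophages at a mean of 45.3 CPM and TCF4 at 20.6 CPM. The host was a mouse and the symbols are human, so a 0 does not show that host cells of a type were absent. Where a marker was present, counts from melanoma cells and from host reads cannot be told apart. The 14 macrophage and neutrophil markers summed to 49.7 to 66.8 CPM in high fat libraries with inhibitors and 61.2 to 79.2 without, and to 50.4 to 80.9 CPM in ketogenic libraries with inhibitors and 54.3 to 89.5 without. The 17 leukocyte markers were led by CORO1A, at a mean of 4.23 CPM over the 16 libraries. They summed to 7.65 to 10.97 CPM in high fat libraries with inhibitors and 2.69 to 3.20 without. In ketogenic libraries they summed to 5.30 to 9.33 CPM with inhibitors and 7.03 to 10.4 without. The sum of 10 S phase and mitosis genes was 1234 to 1518 CPM in high fat libraries with inhibitors and 222 to 890 without, and 727 to 1732 CPM in ketogenic libraries with inhibitors and 1172 to 1672 without. The 10 endothelial markers were led by KDR, at a mean of 41.3 CPM over the 16 libraries, with CDH5 under 0.1 CPM in all. In high fat libraries they summed to 75.0 to 84.3 CPM with inhibitors and 18.2 to 37.6 without. The 9 fibroblast markers, led by ACTA2 at a mean of 33.4 CPM, summed there to 36.6 to 60.7 CPM with inhibitors and 95.6 to 105 CPM without. A sum led by 1 gene, such as CD68 among the macrophage and neutrophil markers, can follow that gene alone. The 12 lung epithelial markers were led by KRT18 at a mean of 128 CPM. In high fat libraries they summed to 137 to 149 CPM with inhibitors and 155 to 193 CPM without. In ketogenic libraries their sums overlapped, at 107 to 204 CPM with inhibitors and 129 to 158 CPM without. Under high fat feeding with inhibitors against without, where 20.6% of all genes were higher and 21.7% lower, 2 of 8 tested leukocyte and 2 of 6 endothelial markers were higher and 0 lower, and 7 of 10 cell cycle genes were higher and 0 lower. Of 6 macrophage and neutrophil markers 1 was higher and 1 lower, of 8 fibroblast markers 1 was higher and 2 lower (median log2 0.35), and of 3 lung epithelial markers 0 were higher and 2 lower. Whether any of these marker lists, the cell cycle genes or the ribosomal share played a part in the results below was not tested. In bulk RNA, fewer cells of a type and less RNA per cell cannot be told apart.

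The upstream part of the pathway was present but almost no human interferon gene was. Counts were for human genes, so interferon made by the mouse host was not measured. Of 22 interferon genes, 12 had no count in any library and 18 stayed under 0.1 CPM in all, and the highest, IFNE, an interferon of epithelia, averaged 1.42 CPM. IFNE was the interferon gene that could be tested, and it differed by -0.10 (log2, SE 0.30) with inhibitors on the high fat diet. By contrast the 11 receptors and kinases summed to 604 to 756 CPM.

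All 45 genes together summed to 1175 ± 33.6 CPM in high fat libraries with inhibitors and 1239 ± 52.8 without, and to 1244 ± 39.3 CPM in ketogenic libraries with inhibitors and 1147 ± 73.3 without (SD, n = 4 each). Compared per length of exon, the highest levels were those of IFITM3, which blocks viral entry at endosomes, at 179 CPM per kilobase over the 16 libraries, IFI16, a sensor of foreign DNA, at 86.3, IFITM1 at 67.0, IFI6 at 36.2 and MX2, a GTPase that acts at the nuclear pore, at 24.1. IFITM3 varied little, between 183 and 264 CPM. At the other end OASL, the antiviral enzyme RSAD2 (viperin), IFI44L, HERC5, the ligase that attaches ISG15, and IFI27 lay at 0.21 CPM per kilobase or less. RSAD2 had 6 to 22 counts per library and IFI27 0 to 22, so changes in these genes were hard to see at this depth. IFITM1, IFITM2 and IFITM3 are near-identical in sequence, and the IFIT and OAS genes are also related, so their estimated counts are uncertain where reads could be assigned to either. The same holds for PARP9 and DTX3L, for RSAD2 and CMPK2 and for IFITM1 and IFITM2, whose annotated spans overlap, since the strand setting is not given in the sources used here.

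**Figure D2:**
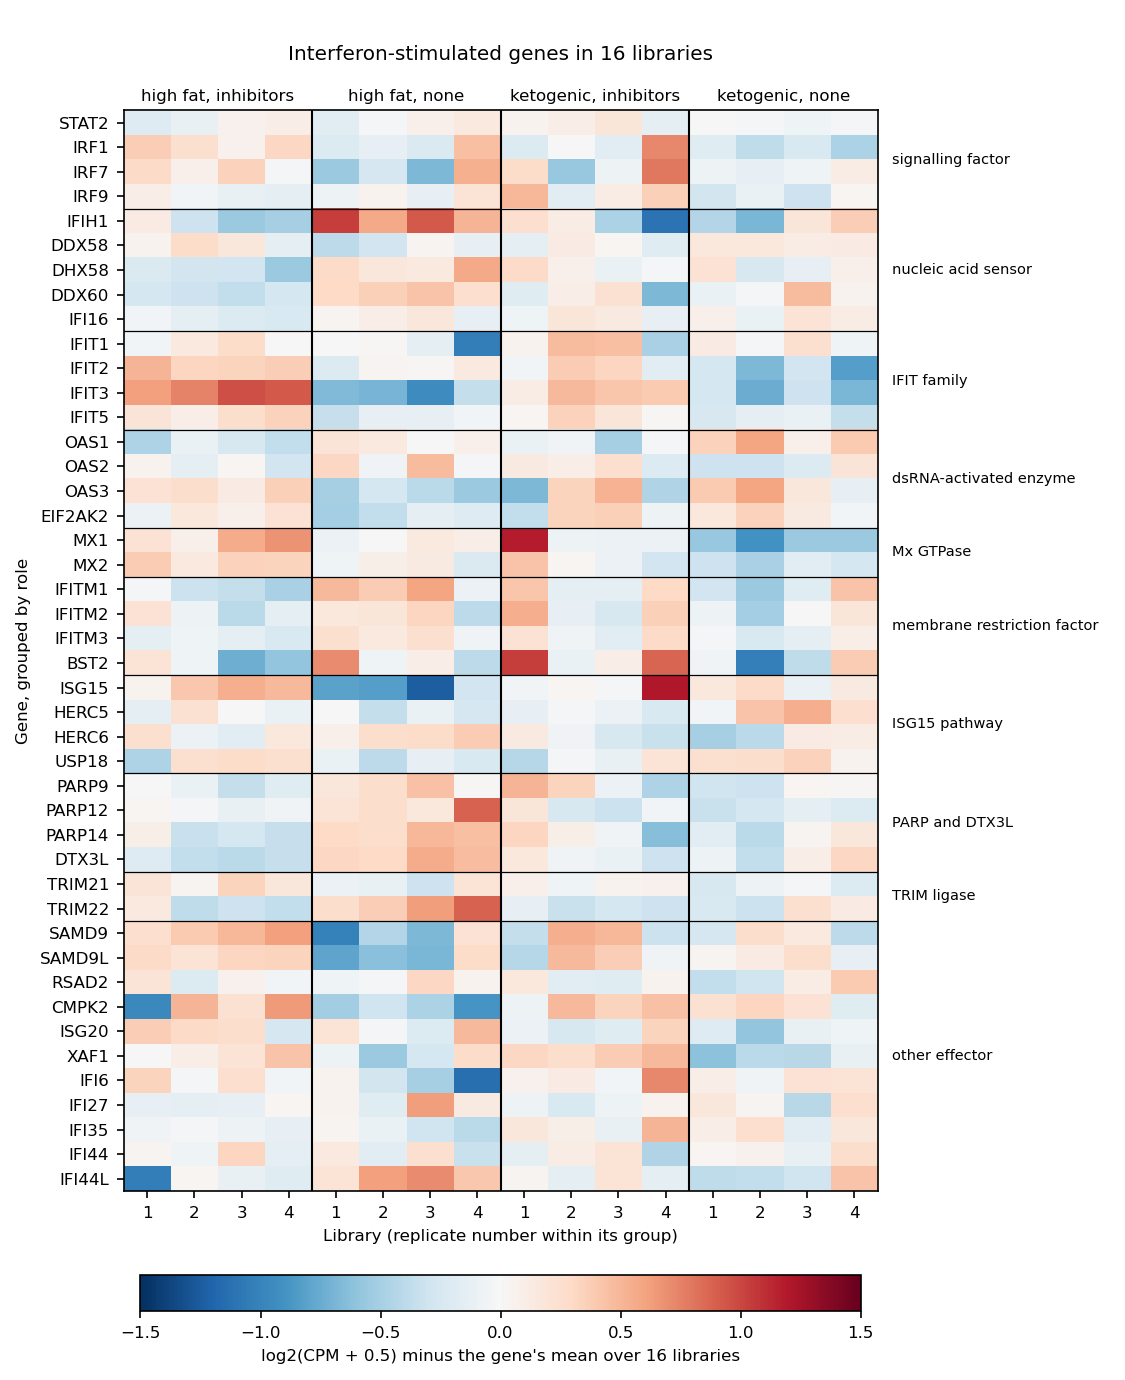
Level of 44 interferon-stimulated genes in each of 16 libraries, as log2(CPM + 0.5) minus the gene's mean over all libraries, with genes in rows by role and libraries in columns by group. IFIT3 stands high in the high fat libraries with inhibitors and low in those without, DTX3L, PARP14 and IFIH1 show the opposite, and MX1 (26.8 CPM) and ISG15 (11.01 CPM) each stand high in 1 ketogenic library with inhibitors.

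The first comparison asked how interferon-stimulated genes differed with inhibitors from without on the high fat diet. They did not move one way: 10 of 44 were higher (22.7%) and 11 lower (25%) at an edgeR quasi-likelihood adjusted p under 0.05. Their median log2 fold change was 0.05 (n = 4 libraries per group here and below, except where libraries are left out). Over all genes tested, 20.6% were higher and 21.7% lower, with a median of -0.03, so the shares were near the background. IFIT3 and ISG15 rose the most, and IFIH1, TRIM22 and DTX3L were among the genes that fell. The groups did not overlap in 8 genes upward (18.2%, background 22.5%) and 11 downward (25%, background 22.2%), and 23 of 44 passed at an unadjusted p under 0.05 (52.3%, background 51.1%).

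None of the transcription factors passed the test in this or any other comparison. STAT2 averaged 34.7 ± 3.33 CPM with inhibitors and 35.8 ± 3.37 without, and IRF9 averaged 9.33 ± 0.770 CPM with inhibitors and 9.79 ± 1.07 without (SD, n = 4). IRF1, a factor induced by interferon gamma, differed by 0.25 (log2, SE 0.20), and IRF7, which amplifies interferon production, by 0.39 (SE 0.32).

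IFIT proteins bind foreign RNA and block its translation. IFIT3, which stabilises the IFIT complex, had 33.4, 36.5, 42.7 and 41.3 CPM with inhibitors, against 13.5, 13.1, 10.98 and 16.7 CPM without. All 4 libraries with inhibitors were above all 4 without. The log2 fold change was 1.5 (SE 0.15, edgeR adjusted p = 8.48e-06), the largest rise among the 44 genes. IFIT5 had 34.6, 32.5, 36.5 and 38.6 CPM with inhibitors and 23.8, 27.7, 27.9 and 29.5 CPM without (log2 0.39, SE 0.10, edgeR adjusted p = 0.00637), and IFIT2 had 18.7, 16.5, 16.5 and 17.0 CPM with inhibitors and 11.2, 13.4, 13.2 and 14.4 CPM without (log2 0.39, SE 0.15, edgeR adjusted p = 0.0462). Neither gene's groups overlapped. IFIT1 averaged 9.35 CPM with inhibitors and 7.36 CPM without, and its groups overlapped (log2 0.35, SE 0.23, edgeR adjusted p = 0.241).

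Of the 5 sensors 3 fell. IFIH1 (MDA5), the sensor of long double-stranded RNA, had 9.11, 6.63, 5.54 and 5.78 CPM with inhibitors, against 17.6, 12.6, 16.2 and 12.1 CPM without. All 4 libraries with inhibitors were below all 4 without. Its log2 fold change was -1.11 (SE 0.30, edgeR adjusted p = 0.00709). DHX58 (LGP2), which tunes the sensors, had 6.22, 5.94, 5.89 and 4.80 CPM with inhibitors and 9.04, 8.29, 8.14 and 11.1 CPM without (log2 -0.68, SE 0.15, edgeR adjusted p = 0.00213). DDX60, a helicase of the same class, had 4.87, 4.68, 4.47 and 4.88 CPM with inhibitors and 7.44, 7.73, 8.14 and 7.19 CPM without (log2 -0.69, SE 0.19, edgeR adjusted p = 0.00776). The groups of DHX58 and DDX60 did not overlap. DDX58 (RIG-I) was not in step with them, at 5.54 CPM with inhibitors and 4.48 CPM without (log2 0.31, SE 0.15, edgeR adjusted p = 0.0982), and IFI16 was at 227 CPM with inhibitors and 261 CPM without (log2 -0.20, edgeR adjusted p = 0.113).

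The enzymes that double-stranded RNA activates were split. OAS3, which makes the oligoadenylate messenger of RNase L, had 46.5, 48.0, 43.2 and 51.0 CPM with inhibitors, against 28.1, 33.0, 30.0 and 27.0 CPM without, with no overlap (log2 0.68, SE 0.21, edgeR adjusted p = 0.0192). OAS1, of the same family and cluster, had 6.002, 7.88, 7.07 and 6.44 CPM with inhibitors and 9.77, 9.40, 8.52 and 8.94 CPM without, so it fell while OAS3 rose (log2 -0.42, SE 0.14, edgeR adjusted p = 0.0257). EIF2AK2 (PKR), the kinase that halts translation, averaged 32.2 CPM with inhibitors and 24.4 CPM without (log2 0.40, SE 0.15, edgeR adjusted p = 0.0379), and its lowest library with inhibitors, at 28.4 CPM, was above the highest without, at 27.2 CPM. OAS2 differed by -0.29 (SE 0.16), which did not pass.

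ISG15, the ubiquitin-like modifier, had 4.69, 6.14, 6.82 and 6.49 CPM with inhibitors, against 2.37, 2.32, 1.63 and 3.60 CPM without. The groups did not overlap, and the log2 fold change was 1.28 (SE 0.29, edgeR adjusted p = 0.00270). Its ligase HERC5, its protease USP18 and the related ligase HERC6 did not pass, with log2 values of 0.39, 0.33 and -0.24. Both Mx GTPases, antiviral proteins that trap viral particles, did not pass either, MX2 at 88.9 CPM with inhibitors and 71.5 CPM without (log2 0.32, edgeR adjusted p = 0.0604) and MX1 at 15.4 CPM with inhibitors and 11.9 CPM without (edgeR adjusted p = 0.238).

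The ADP-ribosylation enzymes all had negative values. DTX3L, the ligase that pairs with PARP9, had 31.0, 27.3, 26.7 and 27.8 CPM with inhibitors, against 44.1, 43.7, 52.3 and 48.8 CPM without. There was no overlap, and the log2 fold change was -0.74 (SE 0.13, edgeR adjusted p = 0.000467), the smallest adjusted p among the genes that fell. PARP14, a mono-ADP-ribosyltransferase, had 42.8, 31.9, 33.6 and 31.7 CPM with inhibitors and 49.8, 48.4, 57.2 and 55.4 CPM without (log2 -0.59, SE 0.17, edgeR adjusted p = 0.0112). PARP12, its relative that binds RNA, averaged 25.5 CPM with inhibitors and 35.1 CPM without (log2 -0.46, SE 0.15, edgeR adjusted p = 0.0195), where the library without inhibitors that had 48.8 CPM lay far above the other 3 at 29.5 to 31.6 CPM. PARP9 averaged 29.7 CPM with inhibitors and 38.9 CPM without (log2 -0.39, edgeR adjusted p = 0.0754).

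Of the membrane restriction factors IFITM1 and IFITM3 fell. IFITM3 had 196, 206, 197 and 183 CPM with inhibitors and 254, 240, 256 and 207 CPM without, so the groups did not overlap but nearly met (log2 -0.29, SE 0.11, edgeR adjusted p = 0.0417). IFITM1 averaged 55.1 CPM with inhibitors and 87.0 CPM without (log2 -0.66, SE 0.20, edgeR adjusted p = 0.0144), and its groups overlapped. BST2 (tetherin), which holds viruses at the surface, averaged 2.098 CPM with inhibitors and 2.90 CPM without, with overlap (edgeR adjusted p = 0.348). TRIM22, an antiviral ubiquitin ligase, had 1.62, 0.964, 1.04 and 0.976 CPM with inhibitors and 1.80, 1.97, 2.44 and 3.03 CPM without, with no overlap (log2 -1.01, SE 0.26, edgeR adjusted p = 0.00521). TRIM21, an antibody-binding ligase, differed by 0.27 and did not pass.

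Among the other effectors 4 rose and 1 fell. SAMD9, which restricts poxvirus translation, had 20.4, 22.6, 24.3 and 26.4 CPM with inhibitors and 8.22, 12.4, 10.5 and 19.9 CPM without (log2 0.87, SE 0.26, edgeR adjusted p = 0.0143), so no library overlapped, though the last one without inhibitors came within 1 CPM. Its neighbour SAMD9L averaged 6.41 CPM with inhibitors and 3.83 CPM without (log2 0.74, edgeR adjusted p = 0.0261), where the last library without inhibitors, at 6.37 CPM, stood apart from the others at 2.77 to 3.16 CPM. CMPK2, a mitochondrial nucleotide kinase, averaged 3.92 CPM with inhibitors and 2.13 CPM without (log2 0.88, edgeR adjusted p = 0.0284), and IFI6, an inhibitor of apoptosis, 33.5 CPM with inhibitors and 22.8 CPM without (log2 0.56, edgeR adjusted p = 0.0405). Both overlapped. IFI44L fell on low counts, at 0.507 CPM with inhibitors and 1.21 CPM without (log2 -1.25, SE 0.47, edgeR adjusted p = 0.0401).

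Scaling moved the split between higher and lower. With library size alone 15 members were higher and 0 lower, as all genes shifted to a median of 0.25, and 30.3% of all genes were then higher and 7.69% lower; all 21 called members kept their sign. The median of the 4 IFIT genes was 0.39, and 0.67 with library size alone; that of the 5 sensors was -0.68 and -0.40, where 1 of them turned positive, that of the 4 ADP-ribosylation genes -0.52 and -0.26, and that of the 4 membrane factors -0.38 and -0.11, where 1 of the 4 turned positive.

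Leaving out 1 library ended some calls for 9 of the 21, and 12 kept them in all 8 leave-one-out fits, among them IFIT3, ISG15, IFIH1, DHX58, DDX60, DTX3L, PARP14, TRIM22 and OAS3. IFIT2 kept its call only without high fat replicate 4 without inhibitors, and so did IFITM3, with edgeR adjusted p up to 0.130 and 0.112. CMPK2 lost its call without 6 of 8 libraries (replicates 1, 3 and 4 without inhibitors and 2, 3 and 4 with them, edgeR adjusted p up to 0.105), IFI44L without 6 (2, 3 and 4 without and 1, 3 and 4 with, up to 0.0949), and EIF2AK2 without 5 (1 and 2 without and 2, 3 and 4 with, up to 0.110). IFI6 lost it without 5 (2, 3 and 4 without and 1 and 3 with, log2 0.37 to 0.75, edgeR adjusted p up to 0.1004), SAMD9L without 5 (1, 2 and 3 without and 3 and 4 with, up to 0.0831) and OAS1 without 4 (1 and 2 without and 1 and 4 with, up to 0.0705). PARP12 lost it without replicate 4 without inhibitors (log2 -0.26, edgeR adjusted p = 0.0768) and without replicate 3 with inhibitors (edgeR adjusted p = 0.0517). The count of higher members was 6 without replicate 1, 2 or 3 without inhibitors or replicate 4 with them, 5 without replicate 3 with inhibitors, and 7 to 11 without any other; that of lower members was 8 to 10.

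**Figure D3:**
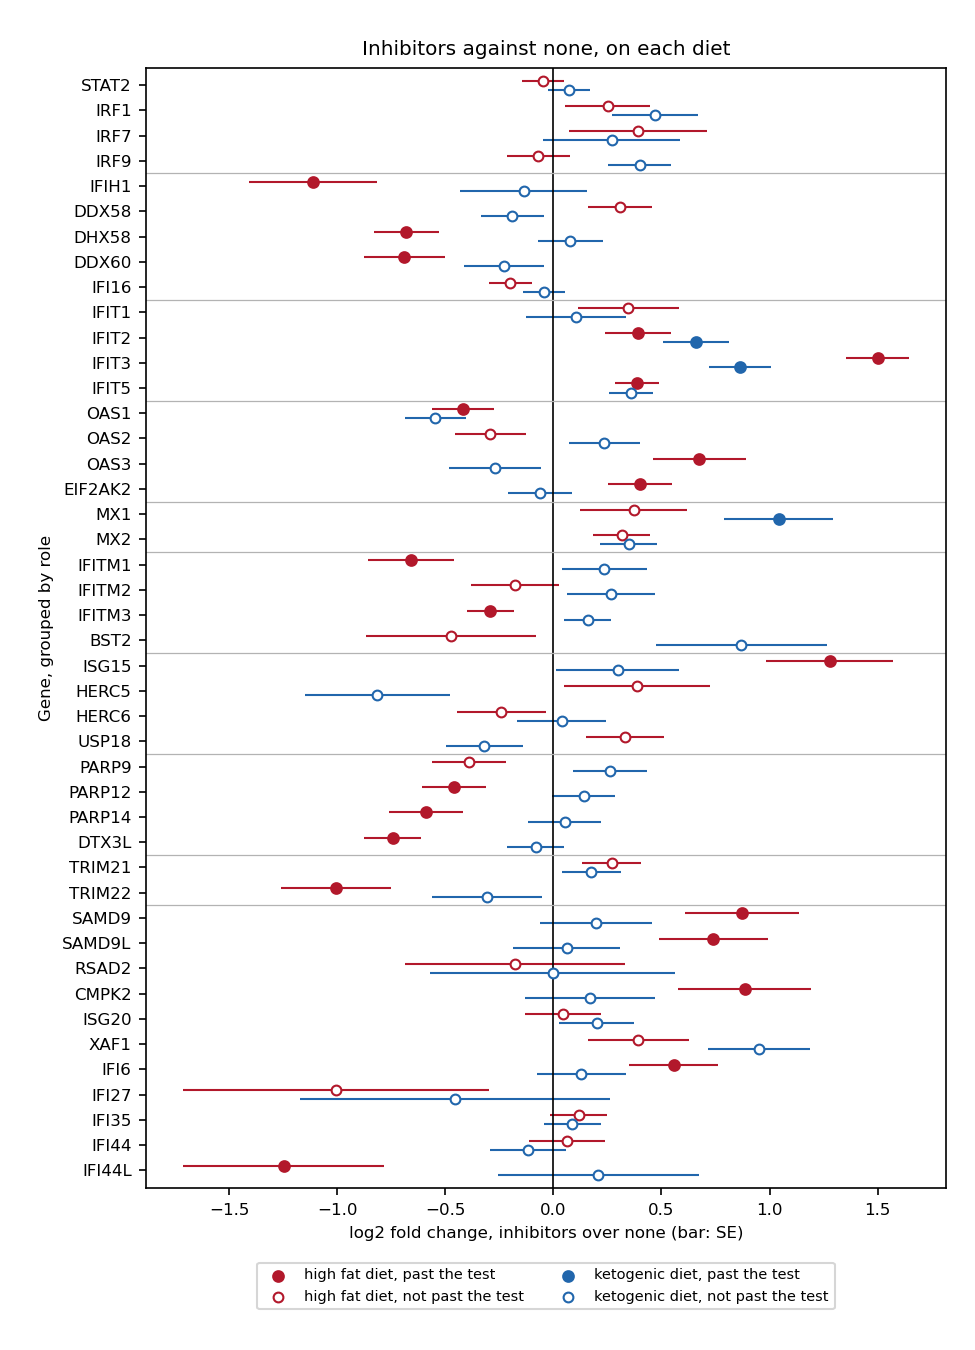
Log2 fold change with inhibitors over without, for 44 interferon-stimulated genes on the high fat diet (red) and the ketogenic diet (blue), with bars for 1 SE and filled points past an edgeR adjusted p of 0.05 (n = 4 libraries per group). IFIT3 (1.5 and 0.86) is filled on both diets, while IFIH1, DHX58, DTX3L and TRIM22 are filled in red but not in blue.

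On the ketogenic diet the same comparison called 3 of 44 members higher (6.82%) and 0 lower (0%), against 0.856% and 0.887% of all genes. The 3 were IFIT3, IFIT2 and MX1. The median log2 fold change of the 44 was 0.13, against 0.01 over all genes. The groups did not overlap in 5 genes upward (11.4%, background 5.26%) and 1 downward (2.27%, background 5.01%). At an unadjusted p under 0.05, 11 of 44 members (25%) passed in either direction, against 18.7% of all genes, and DESeq2 and limma voom each called 5 higher and 1 lower, where DESeq2 called 2.72% of all genes higher and 2.74% lower and limma voom 4.23% and 4.86%.

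IFIT3 had 23.4, 30.6, 28.9 and 28.6 CPM in ketogenic libraries with inhibitors, against 17.9, 12.7, 17.4 and 13.3 CPM without. The groups did not overlap, and its log2 fold change was 0.86 (SE 0.15, edgeR adjusted p = 0.00732). IFIT2 had 12.6, 17.1, 16.4 and 11.6 CPM with inhibitors and 10.7, 7.99, 10.6 and 7.13 CPM without (log2 0.66, SE 0.15, edgeR adjusted p = 0.0366). The groups of IFIT2 did not overlap. IFIT5 also separated, at a mean of 33.7 CPM with inhibitors and 26.2 CPM without, and did not pass (log2 0.36, edgeR adjusted p = 0.0800).

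MX1 had 26.8, 10.9, 10.8 and 10.9 CPM with inhibitors, against 7.61, 5.91, 7.71 and 7.69 CPM without. The first library with inhibitors stood far above the other 3, which lay between 10.8 and 10.9 CPM. The log2 fold change was 1.04 (SE 0.25, edgeR adjusted p = 0.0441), and 0.59 without that library (edgeR adjusted p = 0.0465). XAF1, which counters an inhibitor of apoptosis, had 2.39, 2.29, 2.53 and 2.76 CPM with inhibitors and 1.02, 1.25, 1.25 and 1.65 CPM without, with no overlap, and was just above the threshold (log2 0.95, SE 0.24, edgeR adjusted p = 0.0510). OAS1 was the member nearest to a call downward, at 7.54 CPM with inhibitors and 11.02 CPM without (log2 -0.55, SE 0.14, edgeR adjusted p = 0.0588), again with no overlap.

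IFIT2 lost its call without any of ketogenic replicates 1, 2 and 4 without inhibitors and 2 and 3 with them (log2 0.56 to 0.75, edgeR adjusted p up to 0.118), and MX1 without any of the 4 libraries without inhibitors (edgeR adjusted p 0.0816 to 0.120). IFIT3 kept its call in all 8. The count of higher members was thus 1 without replicate 1, 2 or 4 without inhibitors, and 2 or 3 otherwise.

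The members that passed under high fat feeding can be set beside their values under ketogenic feeding, which shares no library with it. The 10 that were higher had a median log2 fold change of 0.71 under high fat and 0.18 under ketogenic feeding, with 8 of 10 positive under the second diet. The 11 that were lower had medians of -0.68 and 0.05, with 5 of 11 negative. Both sets were picked by their high fat values, so smaller values on the other diet are expected from the choice alone. The matching shares over all genes that passed under high fat feeding were not taken. Across the 44 genes, which are not independent replicates, Pearson's r between the effects was 0.31, and 0.39 across all genes, with the same sign in 56.8% of members and 65.9% of all genes.

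Whether the response to inhibitors differed by diet was tested directly, as the ketogenic log2 fold change minus the high fat one. DHX58 (0.76, SE 0.21, edgeR adjusted p = 0.0374) and DTX3L (0.66, SE 0.19, edgeR adjusted p = 0.0382) passed upward, 2 of 44 (4.55%) against 4.36% of all genes, and 0 downward against 4.66%. Each fell with inhibitors under high fat feeding, and under ketogenic feeding DHX58 differed by 0.08 and DTX3L by -0.08. At an unadjusted p under 0.05 the test had 19 of 44 members (43.2%), against 28.5% of all genes, and DESeq2 called 4 higher and 2 lower (7.95% and 7.58% of all genes) and limma voom 11 and 6 (15.7% and 16.9%), while library size alone gave 0 and 0 (0.593% and 0.893%). IFITM1 (0.90, edgeR adjusted p = 0.0549), IFIT3 (-0.64, 0.0583) and OAS3 (-0.95, 0.0591) were just above the threshold. That IFIT3 rose less on the ketogenic diet was thus not called. OAS3 was widely spread in ketogenic libraries with inhibitors, at 24.8, 50.1, 57.1 and 28.9 CPM. DHX58 lost its call without 9 of 16 libraries and DTX3L without 9 (edgeR adjusted p 0.0535 to 0.0874 and 0.0551 to 0.0833): for both, high fat replicates 1 and 3 without inhibitors, high fat replicates 2, 3 and 4 with them, ketogenic replicates 2 and 3 without and ketogenic replicate 1 with, plus high fat replicate 4 without inhibitors for DHX58 and ketogenic replicate 1 without for DTX3L. The count of higher members was 0 without high fat replicates 1 or 3 without inhibitors, high fat replicates 2, 3 or 4 with them, ketogenic replicates 2 or 3 without or ketogenic replicate 1 with, and 1 without ketogenic replicate 1 without inhibitors. It reached 4 without ketogenic replicate 4 without inhibitors or 3 with them, and 5, with 3 lower, without ketogenic replicate 4 with inhibitors.

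**Figure D4:**
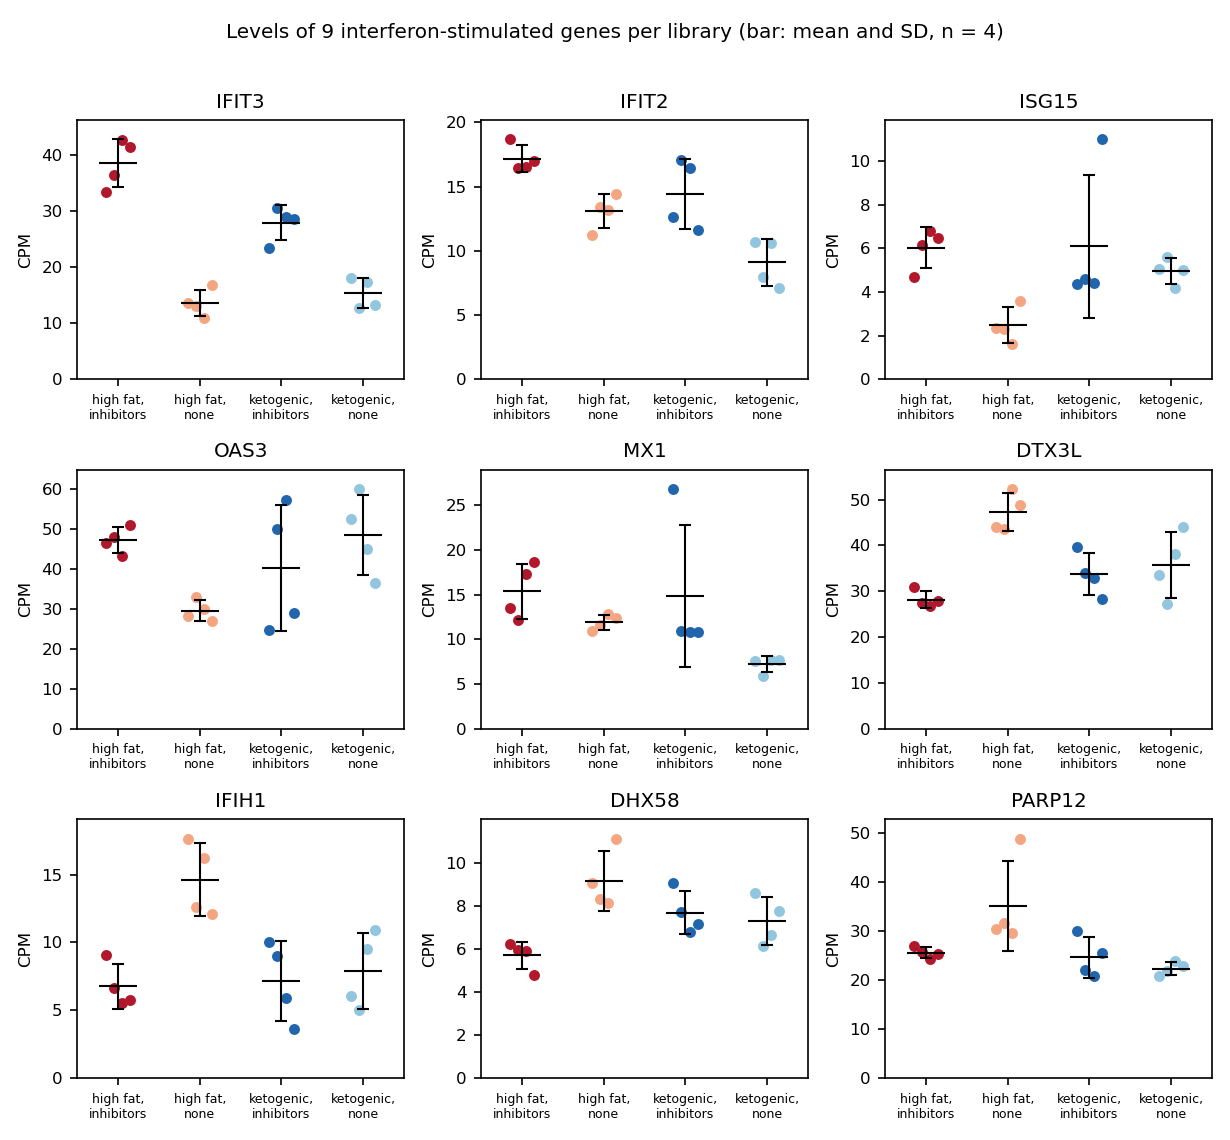
Level in CPM of 9 interferon-stimulated genes in each library (points), with the mean and SD of 4 libraries per group (bars), groups in the order high fat with inhibitors, high fat without, ketogenic with inhibitors, ketogenic without. IFIT3 and IFIT2 are higher with inhibitors on both diets, while DTX3L and IFIH1 are highest in high fat libraries without inhibitors.

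Between the diets without inhibitors, which share their high fat libraries with the comparisons above, 3 of 44 members were higher on the ketogenic diet (6.82%, background 7.99%) and 2 lower (4.55%, background 5.51%). With library size alone 5 were higher and 0 lower (9.4% and 0.887% of all genes), as the median of all genes moved to 0.15, and all 5 called members kept their sign. The groups did not overlap in 6 genes upward (13.6%, background 13.3%) and 6 downward (13.6%, background 12.2%). At an unadjusted p under 0.05 the count was 23, or 52.3%, against 30.7% of all genes.

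ISG15 had 5.06, 5.62, 4.17 and 5.00 CPM on the ketogenic diet without inhibitors, against 2.37, 2.32, 1.63 and 3.60 CPM on the high fat diet without inhibitors, with no overlap (log2 1.00, SE 0.29, edgeR adjusted p = 0.0337). OAS3 had 52.5, 60.0, 44.9 and 36.5 CPM on the ketogenic diet, against 28.1, 33.0, 30.0 and 27.0 CPM on the high fat diet (log2 0.72, SE 0.22, edgeR adjusted p = 0.0376). EIF2AK2 averaged 33.6 CPM on the ketogenic and 24.4 CPM on the high fat diet (log2 0.46, SE 0.15, edgeR adjusted p = 0.0480). All 3 had their lowest ketogenic library above the highest high fat one.

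PARP12 averaged 22.3 CPM on the ketogenic diet and 35.1 CPM on the high fat diet (log2 -0.65, SE 0.15, edgeR adjusted p = 0.0106), and IFIT2 9.11 CPM on the ketogenic and 13.1 CPM on the high fat diet (log2 -0.52, SE 0.15, edgeR adjusted p = 0.0338). Neither overlapped. IFIH1, at 7.88 CPM on the ketogenic and 14.6 CPM on the high fat diet, MX1, at 7.23 CPM on the ketogenic and 11.9 CPM on the high fat diet, and TRIM22, at 1.37 CPM on the ketogenic and 2.31 CPM on the high fat diet, did not overlap either and did not pass (edgeR adjusted p = 0.0536, 0.0647 and 0.0570). ISG15 lost its call without high fat replicates 1, 2 or 3 or ketogenic replicates 1 or 2 (edgeR adjusted p up to 0.0994), IFIT2 without high fat replicates 2, 3 or 4 or ketogenic replicates 2 or 4 (up to 0.118), and OAS3 and EIF2AK2 without any high fat replicate or ketogenic replicates 1, 2 or 3 (up to 0.132 and 0.155). PARP12 kept it in all 8, at -0.45 (log2) without the high fat library at 48.8 CPM. The counts of higher and lower members ran from 0 and 1, without high fat replicate 2 or 3 or ketogenic replicate 2, to 3 and 6, without ketogenic replicate 4. They were 0 and 2 without ketogenic replicate 1, 1 and 2 without high fat replicate 1 or ketogenic replicate 3, and 2 and 1 without high fat replicate 4.

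With inhibitors on both diets no member passed, 0 of 44 in either direction (background 0.05% higher and 0.119% lower). By edgeR's unadjusted p under 0.05 there were 4 (9.09%, background 12.7%), IFIT3, DHX58, BST2 and IFITM1. IFIT3 averaged 27.9 CPM on the ketogenic diet and 38.5 CPM on the high fat diet (log2 -0.47, SE 0.14, edgeR adjusted p = 0.179), and DHX58 7.68 CPM on the ketogenic and 5.71 CPM on the high fat diet (log2 0.43, edgeR adjusted p = 0.241). For both genes the groups did not overlap, 1 member upward (2.27%, background 3.45%) and 1 downward (2.27%, background 3.68%). DESeq2 called 0 in either direction (1.22% of all genes higher and 0.937% lower) and limma voom 1 higher and 2 lower (2.94% and 3.66%).

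**Figure D5:**
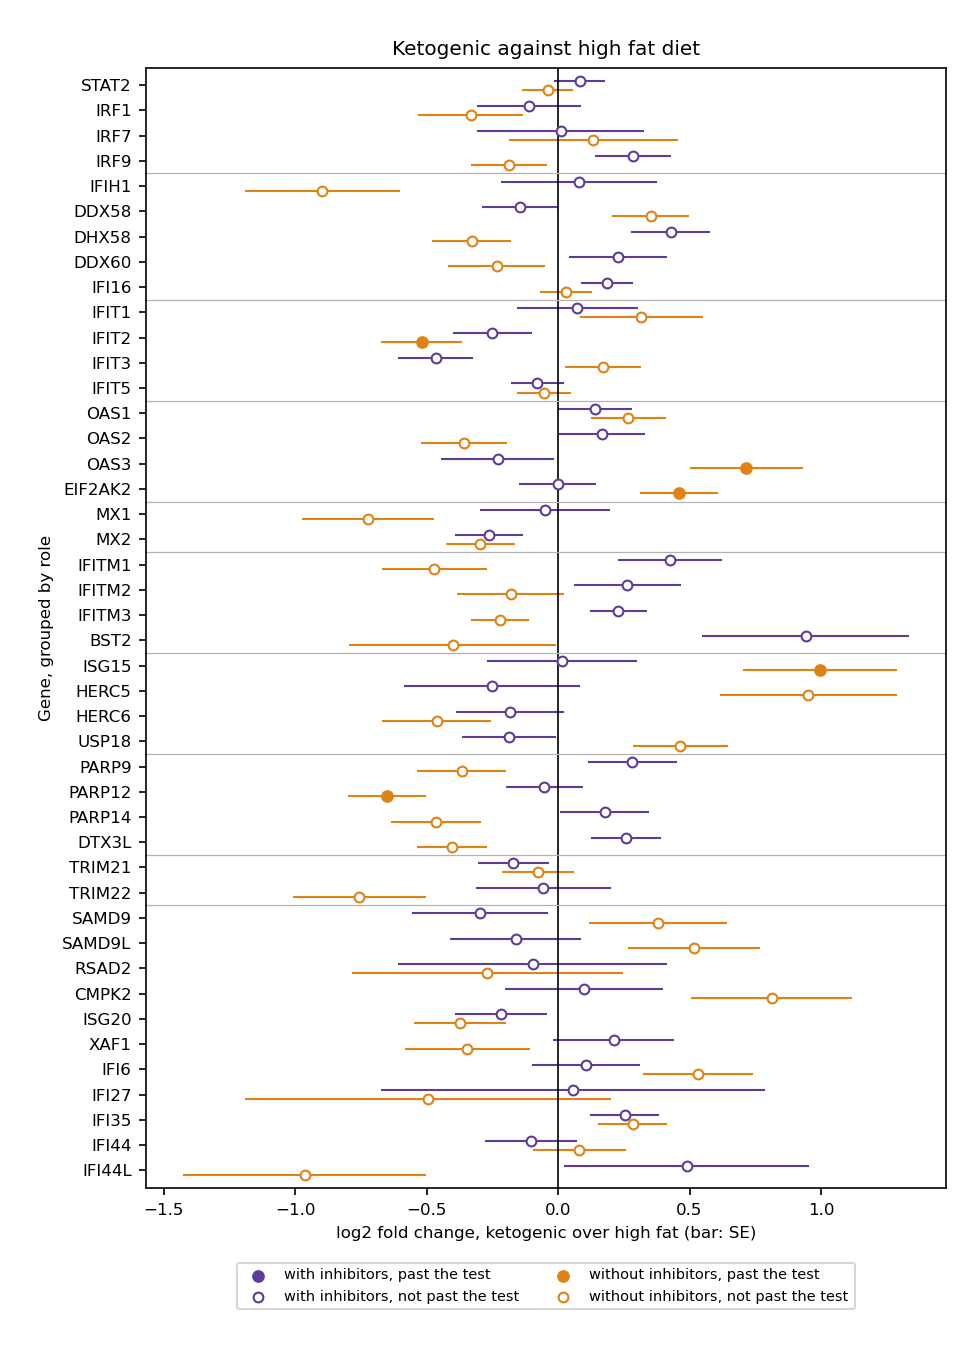
Log2 fold change, ketogenic over high fat diet, for 44 interferon-stimulated genes with inhibitors (purple) and without (orange), with bars for 1 SE and filled points past an edgeR adjusted p of 0.05 (n = 4 libraries per group). Filled points are orange and number 5, with ISG15 (1.00) and OAS3 (0.72) to the right and PARP12 (-0.65) and IFIT2 (-0.52) to the left.

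Other genes of the pathway were examined as lists, chosen with earlier results of these data known, and the shares of all genes to read them against under high fat feeding are 20.6% higher and 21.7% lower. On the high fat diet with inhibitors against without, 5 of 11 genes of sensing adaptors and kinases rose and 1 fell, including the kinase IKBKE at 14.8 CPM with inhibitors and 9.07 CPM without (log2 0.71, edgeR adjusted p = 0.000635), AIM2, a DNA sensor of the inflammasome, at 45.9 CPM with inhibitors and 27.2 CPM without (log2 0.76, edgeR adjusted p = 0.00235), and TMEM173, the adaptor also called STING (log2 0.43). Of 11 receptors and kinases 1 rose and 2 fell: IFNAR1, a chain of the type I receptor, at 55.4 CPM with inhibitors and 38.4 CPM without (log2 0.53, edgeR adjusted p = 0.00221), IFNGR1 (log2 -0.45) and IL10RB (log2 -0.42). Of 7 feedback regulators 1 rose, the phosphatase PTPN1 (log2 0.44). Of 50 further interferon-stimulated genes 6 rose and 9 fell, among them LY6E, a membrane protein that aids or restricts viruses, at 216 CPM with inhibitors and 96.99 CPM without (log2 1.16, edgeR adjusted p = 7.86e-05), APOBEC3G, a cytidine deaminase, at 12.2 CPM with inhibitors and 22.3 CPM without (log2 -0.88, edgeR adjusted p = 0.000285), and NUB1, which targets ubiquitin-like proteins for degradation (log2 -0.62). On the ketogenic diet, 0 of these lists' genes passed with inhibitors against without, where 0.856% of all genes were higher and 0.887% lower. Between diets without inhibitors 7.99% of all genes were higher on the ketogenic diet and 5.51% lower. Of 11 sensing adaptors and kinases 2 were higher, AIM2 (log2 0.71) and IKBKE (log2 0.44), and 0 lower. Of 11 receptors and kinases 0 were higher and 1 lower, IFNGR1 (log2 -0.44), and of 7 feedback regulators 0 passed. Of 50 further interferon-stimulated genes 3 were higher and 2 lower. Among them LY6E (log2 0.74) and APOBEC3B (log2 1.28) were higher, and TRIM25, a ligase that activates RIG-I, was lower (log2 -0.31).

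The 44 genes did not move as 1 block across libraries. Averaged over all pairs of the 44 genes, Pearson's r over 16 libraries was 0.01, and 0.000795 over all genes. Some genes that lie near each other on a chromosome did move together. SAMD9 and SAMD9L on chromosome 7 had r = 0.93 over the 16 libraries (0.91 after group means were removed), and MX1 and MX2 on chromosome 21 had 0.87 (0.77). On chromosome 3 DTX3L had 0.91 (0.89) with PARP14, which lies 105 kb away, and 0.71 (0.72) with PARP9, which overlaps it. IFIT2 and IFIT3 had 0.72 (0.53). IFITM1 had 0.91 (0.84) with IFITM3 and 0.81 (0.89) with IFITM2, but near-identical reads can join such genes. Other neighbours did not follow each other. OAS1 and OAS3 had -0.12, OAS3 and OAS2 -0.43, RSAD2 and CMPK2 -0.52, and HERC5 and HERC6 -0.28. IFI44 and IFI44L had 0.07, IFIT3 and IFIT1 0.29, and IFIT1 and IFIT5 0.28. These are descriptions over libraries that share groups and scaling.

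DTX3L and IFIT3, the members with the smallest p downward and upward under high fat feeding, were each compared with all others. The genes most like DTX3L over 16 libraries were PARP14 (r = 0.91), IFIH1 (0.88) and TRIM22 (0.87), and within groups these remained at 0.89, 0.82 and 0.71. ISG15 ran opposite to DTX3L (-0.82, within groups -0.53). Within groups HERC6 (0.80), RSAD2 (0.73) and PARP9 (0.72) were also closer to DTX3L than TRIM22 was. Over 16 libraries IFIT3 was most like IFIT5 (0.86, within groups 0.42), and within groups it was most like SAMD9L (0.66) and IFIT2 (0.53). Because DTX3L and IFIT3 were picked for a group difference, r over 16 libraries partly restates that difference.

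Libraries differed within groups. In 4 of the 16, over 2% of all genes were over 1.5-fold above the highest of the other 3 of the group: 2.33% in high fat replicate 1 with inhibitors, 3.92% in high fat replicate 4 without, and 4.15% and 5.01% in ketogenic replicates 1 and 4 with inhibitors. In ketogenic replicate 1 with inhibitors MX1 was 1 of 44 members over 2-fold above the others (all genes 1.05%), and 16 of 44 members had their highest value of the group there, against 28.9% of all genes. In ketogenic replicate 4 with inhibitors ISG15, at 11.01 CPM, was over 2-fold above the other 3 at 4.35 to 4.61 CPM (all genes 1.2%), and IRF1 and IFI6 were over 1.5-fold above. High fat replicate 4 without inhibitors had IRF7, PARP12, SAMD9 and SAMD9L over 1.5-fold above and IFIT1 and IFI6 below (all genes 4.71% below). In high fat replicate 1 with inhibitors 0 of 44 members were over 1.5-fold above, and 3 were below (all genes 1.72% below). These were USP18, CMPK2 at 1.44 CPM (others 3.93 to 5.42) and IFI44L at 0.0909 CPM (others 0.570 to 0.744). These 4 libraries were also left out together, after seeing the data. Ketogenic replicates 2 and 3 were then all that remained with inhibitors on that diet, and each high fat group lost 1 library. Removing the libraries farthest from their groups lowers the spread that the test uses, so these counts cannot be set against those of all 16. Under high fat feeding 16 members were then higher and 12 lower with inhibitors (27.5% and 27% of all genes). Under ketogenic feeding 5 were higher and 1 lower (2.87% and 3.42%). Between diets without inhibitors 8 were then higher and 12 lower (17.5% and 14.7%), with inhibitors 0 and 0 (1.45% and 1.23%), and 9 and 5 passed the test of the difference in response (9.95% and 12.6%).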

How the data were processed

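The deposited table holds RSEM expected counts (estimated counts) of 26475 gene symbols in 16 libraries, made by the authors and not scaled for depth; 13% of values were not whole and were rounded. Per the submitters' processing notes the tools were RSEM 1.2.15 and Bowtie2 2.1.0, with hg38 as the build and no role stated. What annotation and strandedness applied, and whether host reads were removed, is not given in the sources used here. Library totals lay between 37.1 and 77.3 M (mega), and intervals were not drawn because the libraries, not the reads, set the error.

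Genes were filtered with edgeR's filterByExpr over 4 groups (16012 left), scaled by TMM and fitted with edgeR 4.0.16 (R 4.3.3) robust quasi-likelihood in 1 model of 4 group means. There were 5 comparisons, all two-sided, adjusted by Benjamini-Hochberg over all genes, with a threshold of 0.05. The common biological coefficient of variation was 0.228. Levels are CPM on TMM-scaled sizes, and log2 fold changes are edgeR's. Each SE was derived, as the size of the log2 fold change over the square root of the test's F statistic. Positions are GENCODE release 29, and promoters are RefSeq GRCh38.p14. The procedure was tested on simulated data with 200 changed genes, drawn from the means, library sizes and spreads fitted here. No simulated library was made to stand apart, so the simulation does not cover that feature of these data.

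The members and lists were chosen with earlier results of these data known. The text names, per comparison, the 10 members with the smallest p past the threshold, the highest member of each role, the 10 largest ratios of 1 library to the median of the other 3, the 4 signalling factors and up to 3 genes per related list. Other called or nearly called members were added after their values were seen. Some genes of the lists are not reported here. Alternatives were library size alone, RLE factors, no low-count filter, ribosomal RNA set aside, DESeq2 1.42.0, limma 3.58.1 voom with quality weights, only the libraries compared, a replicate block, and leaving out each library. No 2 libraries of a group agreed within sampling noise (chi-square per degree of freedom 35.4 to 846). The statistic took in ribosomal RNA, whose share varied within groups, so it does not show that replicates are separate tumours.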

Additional observations from a re-analysis of the deposited data

Results flagged for a closer look

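In 11 of 112 sets of 4 libraries (9.82%, 28 members examined) 1 library lay far from the other 3 by Dixon's criterion. Chance alone gives about 1 in 20 for a set not chosen by its values. Some members examined were named for a large ratio of 1 library to the other 3, and the sets share libraries. The share therefore cannot be read against chance. In high fat replicate 4 without inhibitors IRF1 was at 16.1 CPM (others 9.93 to 10.7), PARP12 at 48.8 CPM (29.5 to 31.6) and SAMD9L at 6.37 CPM (2.77 to 3.16). In high fat replicate 1 with inhibitors PARP14 was at 42.8 CPM (31.7 to 33.6), TRIM22 at 1.62 CPM (0.964 to 1.04) and USP18 at 4.73 CPM (8.04 to 8.22). Among ketogenic libraries with inhibitors MX1 was at 26.8 CPM in replicate 1 (10.8 to 10.9), ISG15 at 11.01 CPM in replicate 4 (4.35 to 4.61) and TRIM21 at 5.63 CPM in replicate 2 (6.17 to 6.25). Without inhibitors MX1 was at 5.91 CPM in ketogenic replicate 2 (7.61 to 7.71) and IFI44L at 1.14 CPM in ketogenic replicate 4 (0.433 to 0.487).

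The log2 response to inhibitors differed by diet, as ketogenic minus high fat, for DHX58 by 0.76 and for DTX3L by 0.66 among the members. Among further interferon-stimulated genes it differed for LY6E by -0.74 (SE 0.22, edgeR quasi-likelihood adjusted p = 0.0464) and for NUB1 by 0.48 (SE 0.14, edgeR adjusted p = 0.0459).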

How the results depend on the processing

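Over all alternatives except the leave-one-out fits, 244 of 277 values of named members kept their call, 33 lost it and 0 changed direction. With library size alone, counts of higher and lower members under high fat feeding with inhibitors were 15 and 0 (median log2 0.32), under ketogenic feeding 6 and 0 (0.39), between diets without inhibitors 5 and 0 (-0.014), with inhibitors 0 and 0 (0.19), and 0 and 0 for the difference in response. DESeq2 gave 5 and 1 under ketogenic feeding, 5 and 6 between diets without inhibitors (11% and 8.64% of all genes), and 4 and 2 for the difference. Limma voom gave 18 and 16 under high fat feeding (30.4% and 31.8% of all genes), 5 and 1 under ketogenic feeding, 11 and 14 between diets without inhibitors (19.7% and 20.2%), 1 and 2 with them, and 11 and 6 for the difference. A fit of only the libraries compared gave 1 higher under ketogenic feeding, and 5 and 5 between diets without inhibitors. With no low-count filter the difference had 1 higher. Without the 4 libraries that stand apart (chosen after seeing the data) the counts were 16 and 12 under high fat feeding and 5 and 1 under ketogenic feeding. They were 8 and 12 between diets without inhibitors, and 9 and 5 for the difference. That fit had fewer libraries in every group but ketogenic without inhibitors. The cause of these moves was not tested.

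Leaving out 1 library gave, under high fat feeding, 5 to 11 higher and 8 to 10 lower (median -0.014 to 0.13); under ketogenic feeding 1 to 3 and 0 to 1 (0.09 to 0.16); between diets without inhibitors 0 to 3 and 1 to 6 (-0.27 to -0.12), with them 0 and 0 (0.02 to 0.06); and for the difference 0 to 5 and 0 to 3 (0.10 to 0.24).

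Replicate numbers were not taken to pair libraries: 24 correlations of same-numbered libraries ran from -0.27 to 0.34, 7 were over 0.1, and 5 of 16 libraries correlated best with their own number. All 4 pairs were over 0.1 (0.118 to 0.232) between ketogenic libraries with inhibitors and high fat libraries without, which are not compared directly, and between no groups that are. With a replicate block the counts of higher and lower members were 8 and 10 under high fat feeding, 2 and 0 under ketogenic feeding, 3 and 2 between diets without inhibitors, 0 and 0 with them, and 2 and 1 for the difference. IFIT2, IFITM3 and IFI6 lost their calls under high fat feeding with the block (edgeR adjusted p = 0.0563, 0.0537 and 0.0540), and IFIT2 and MX1 under ketogenic feeding (0.0508 and 0.0542), and it ended no other call of a named member. Genes of under 1 CPM (RSAD2, IFI27, HERC5, IFI44L) had few counts, which limits what could be seen in them.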
